A study of Mus musculus with 4 samples.

Results

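White matter tracts of striatal sections were compared between mice whose midbrain dopamine neurons had been chronically activated and all control mice. The members are the 8 white matter columns of the striatal arrays, 1 for each mouse, out of 47 region columns in the whole series, taken by their region label and their group. All mice were male, 3 to 4 months old and homozygous for DAT (iCre/iCre), so that Cre recombinase was made in cells with an active dopamine transporter gene, and all were single housed with a running wheel. The 3 GqCNO mice (781, 801 and 804) had a Cre-dependent AAV for hM3Dq(Gq)-mCherry injected on both sides of the midbrain and drank clozapine-N-oxide (CNO, 300 mg/L with 2% sucrose) for 1 week. hM3Dq is an engineered receptor that excites a neuron when CNO binds it. The 3 GqVeh mice (784, 785 and 802) had the same injection and drank 2% sucrose only, and the 2 CNO alone mice (C1W7 and C2W2) drank CNO with sucrose and were not injected. No group was injected with a virus lacking the receptor, and the white matter itself was not the site of injection. Each mouse is 1 replicate.

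White matter consists of bundles of axons wrapped in myelin, a lipid-rich sheath made by oligodendrocytes, with astrocytes, microglia, oligodendrocyte precursors and blood vessels between the axons. The study used it as a striatal control region, and the question here is which transcripts in it differed in GqCNO mice. Red blood cells carry oxygen on haemoglobin, a tetramer of alpha and beta globin chains, and their precursors and youngest circulating forms hold much globin mRNA. Glucocorticoid hormones act through a nuclear receptor that switches on a set of genes in many cell types of the brain, oligodendrocytes included.

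The study chose white matter discs by Mbp and left out discs high in Gfap, Aldh1l1, Aif1 or P2ry12, so the levels of these 5 genes describe the choice. Levels are given throughout as UMIs (unique molecular identifiers, 1 for each captured transcript) per 10000 UMIs of the column. Mbp, the myelin basic protein gene, stood at 184 to 340 in the 8 white matter columns and at 22.2 to 29.1 in the caudoputamen columns of the same mice. Ppp1r1b, the DARPP-32 gene of striatal projection neurons, stood at 1.38 to 2.75 in white matter and 22.4 to 25.9 in the caudoputamen, and Prkcd, used for the lateral septal complex, at 0.00 to 0.20 in white matter. The columns thus carried the defining transcript of their label, with a low level of the striatal one.

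A column held 21 to 72 discs and 119422 to 405313 UMIs, both lowest in GqCNO mouse 801, and 3 UMIs in a column correspond to a level of 0.0740 to 0.251. On the array grid, at least 95.2% of the white matter discs of every mouse touched another one, and 0.00% (801) to 25.6% (785) touched a caudoputamen disc. The mice were not alike in make-up. The summed level of 20 myelin structural genes was 454 in GqVeh mouse 784 and 524 in GqCNO mouse 781, both on array pair 2, and 748 to 1009 in the other 6. Somatostatin transcripts (Sst, of inhibitory interneurons) stood at 10.3 to 15.6 in mice 781, 784 and 785 and at 1.69 to 6.13 in the others, and Ttr, made by the choroid plexus, at 21.7 in CNO alone mouse C2W2 and at 0.00 to 1.93 elsewhere. Each array pair held mice of all 3 groups. Array pair 1 carried 801, 804, 802 and C2W2, and array pair 2 carried 781, 784, 785 and C1W7, so that differences within a pair could be given beside the pooled ones.

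Of 10902 genes with a mean level of at least 0.05, 4 rose in GqCNO white matter against all 5 controls and none fell (limma, Benjamini-Hochberg adjusted p under 0.05), which is 0.0367% of the genes tested. All 4 encode adult haemoglobin chains. Before adjustment, p was under 0.05 for 112 genes with higher levels (1.03%) and for 211 with lower levels (1.94%). The 3 GqCNO mice lay above all 5 controls for 112 genes (1.03%) and below all 5 for 146 (1.34%). The median log2 difference over all genes was -0.01, and 48.8% of the genes had a positive difference. Among the 1530 genes with a mean level of at least 1, the 95% interval of the difference lay within 1 log2 unit of 0 on both sides for 93.2%. The calls rested on limma's estimate of variance as a trend of the mean level: 0 genes passed without the trend (409 at an unadjusted p under 0.05), and 0 passed in the methods' t-test on the deposited values (368 unadjusted), whereas edgeR's quasi-likelihood test on the recovered UMIs called 5.

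**Figure D1:**
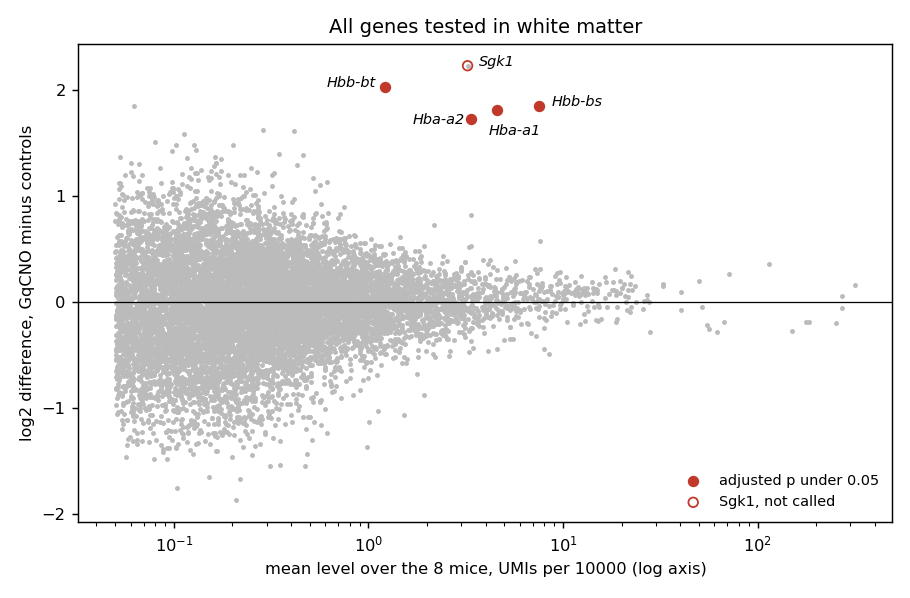
All 10902 genes tested in white matter, 1 point each, by mean level over the 8 mice (UMIs per 10000, log axis) and log2 difference between GqCNO and the 5 controls. The 4 globin genes called by limma (filled red) lie at differences of 1.73 to 2.03, apart from other genes of similar level, and Sgk1 (open circle) at 2.23 was not called.

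Against GqVeh alone, the same number of genes was called, 4 higher and none lower (0.0367%), and again these were the 4 globin genes. Against the 2 CNO alone mice no gene was called (0%), the smallest adjusted p in limma being 0.0902, shared by Hbb-bs and Hba-a2. Before adjustment, 290 of the 10902 genes tested were higher and 169 lower at a limma p under 0.05. With the array pair as a block, Hbb-bs and Hba-a2 passed against CNO alone (adjusted p = 0.0310 in limma), while against GqVeh Hbb-bt no longer passed (0.0619) and 3 genes were called. Between the control groups, GqVeh against CNO alone, 0 of 10902 genes were called (0%), with 349 higher and 105 lower in GqVeh without adjustment. Unadjusted counts of this size thus also arose between the control groups. All comparisons share mice. Left out singly, mice changed these counts: against GqVeh 0 genes were called without GqVeh mouse 785 and 2 without GqCNO mouse 801, and against CNO alone 6 were called without CNO alone mouse C1W7 and 1 without C2W2.

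The 4 globin genes lie in a pair of clusters. Hbb-bs and Hbb-bt, the adult beta chains, lie on chromosome 7 at chr7:103826523-103827928 and chr7:103812524-103813923, and Hba-a1 and Hba-a2, the adult alpha chains, on chromosome 11 at chr11:32283672-32284486 and chr11:32296492-32297310 (GRCm38.p6, the assembly of mm10). The 120 bases before the start of 3 of them are shown because all 4 genes moved together and share promoter elements known from globin genes (RefSeq, 5′ to 3′ on the gene's own strand). Capitals mark matches on either strand to the CCAAT box, to the CACCC box and to the letters TATAA.
Hbb-bs, minus strand, chr7:103827929-103828048: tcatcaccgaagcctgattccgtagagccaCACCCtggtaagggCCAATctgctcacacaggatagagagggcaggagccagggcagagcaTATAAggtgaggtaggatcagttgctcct
Hbb-bt, minus strand, chr7:103813924-103814043: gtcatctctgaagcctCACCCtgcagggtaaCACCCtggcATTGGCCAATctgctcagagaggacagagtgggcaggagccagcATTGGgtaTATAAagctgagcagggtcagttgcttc
Hba-a1, plus strand, chr11:32283552-32283671: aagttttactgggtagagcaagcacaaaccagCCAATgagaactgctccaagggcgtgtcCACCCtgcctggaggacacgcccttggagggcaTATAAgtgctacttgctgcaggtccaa

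All 3 motifs were present before each of the 4 genes. Among 32844 windows of the same length in the reference table, 21.3% held CCAAT, 31.7% CACCC, 11.9% TATAA and 0.688% all 3. A match is a description of the letters and not a site of binding. The Hba-a2 window is not shown, because the Hba-a1 and Hba-a2 promoter entries were identical over 297 of 297 aligned bases, shifted by 3. The alpha genes are also near-identical copies in their transcripts, as are the beta genes to a lesser degree, so the split of reads within each pair is uncertain, whereas the sum of the pair does not depend on it.

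Hbb-bs, the more abundant beta chain gene, stood at 12.5, 15.7 and 12.9 UMIs per 10000 in GqCNO mice 781, 801 and 804. It stood at 3.36, 2.65 and 4.43 in GqVeh mice 784, 785 and 802 and at 6.13 and 2.95 in CNO alone mice C1W7 and C2W2. Every GqCNO mouse was above every control, and the groups did not overlap. The means were 13.7 ± 1.74 (SD, n = 3) and 3.90 ± 1.41 (SD, n = 5), a ratio of 3.50, and the log2 difference was 1.85 ± 0.24 (SE, limma adjusted p = 0.00134). Within array pair 1 the log2 difference was 1.96, and within array pair 2 it was 1.70.

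Hbb-bt, the other adult beta chain gene, was measured at 1.88, 2.51 and 2.43 in GqCNO mice 781, 801 and 804, at 0.381, 0.351 and 0.766 in GqVeh mice 784, 785 and 802, and at 1.09 and 0.307 in CNO alone mice C1W7 and C2W2. It again separated the 3 GqCNO mice from all controls, with CNO alone mouse C1W7 the nearest control. The log2 difference was 2.03 ± 0.35 (SE, limma adjusted p = 0.0174), 2.22 within array pair 1 and 1.73 within array pair 2. This is the least deeply counted of the 4, with 5 to 27 UMIs in a control column, and its call was lost without mice 801 (adjusted p = 0.107 in limma), 804 (0.262) or 785 (0.148).

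Hba-a1 stood at 7.53, 9.38 and 7.57 in GqCNO mice 781, 801 and 804, at 1.94, 1.85 and 2.38 in GqVeh mice 784, 785 and 802, and at 4.42 and 1.60 in CNO alone mice C1W7 and C2W2. Its log2 difference was 1.81 ± 0.27 (SE, limma adjusted p = 0.00249). Hba-a2 stood at 5.53, 7.70 and 4.74, at 1.81, 1.60 and 1.76, and at 2.47 and 1.23 in the same order of mice, with a log2 difference of 1.73 ± 0.25 (SE, limma adjusted p = 0.00249). Neither gene overlapped between GqCNO and control mice. Within array pairs 1 and 2 the differences were 2.08 and 1.56 for Hba-a1 and 2.0 and 1.5 for Hba-a2. Each column pools the RNA of all cells in its discs, so fewer cells of a type and less RNA per cell cannot be told apart in any of these values.

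**Figure D2:**
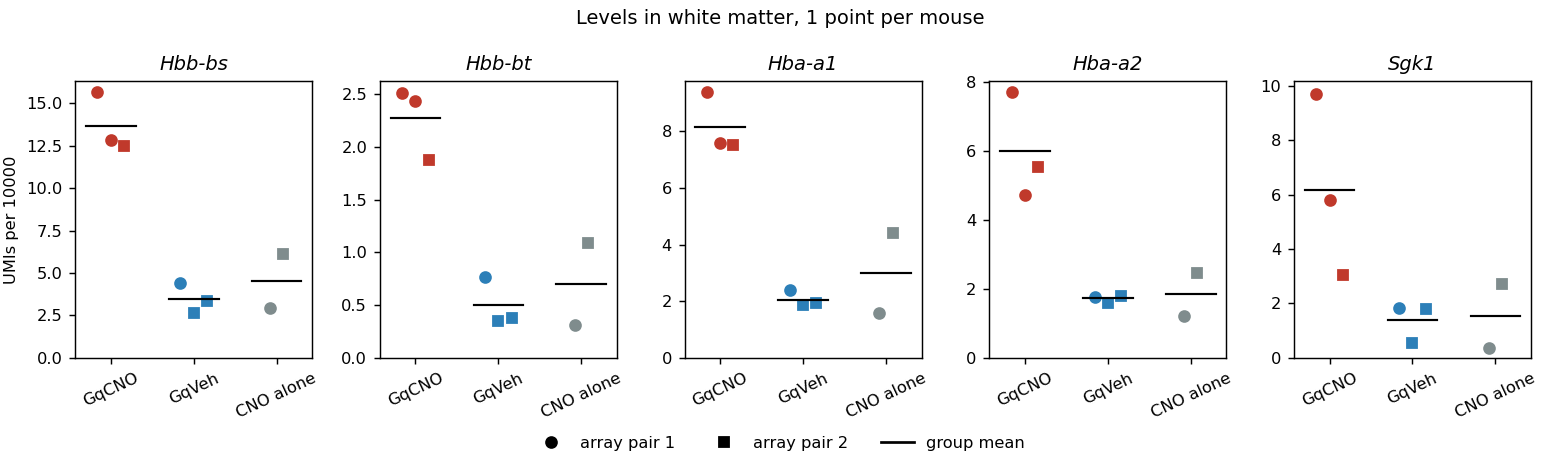
Levels of the 4 globin genes and Sgk1 in white matter (UMIs per 10000, linear axes from 0), 1 point for each of the 8 mice, with circles for array pair 1, squares for array pair 2 and a bar at the group mean. In all 5 genes the 3 GqCNO mice lie above the 5 controls, and among controls CNO alone mouse C1W7 is the highest.

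Summed over the 4 genes, globin transcripts made up 27.4, 35.3 and 27.6 UMIs per 10000 in GqCNO mice 781, 801 and 804 and 6.08 to 14.1 in the 5 controls. The mix of chains was similar in all mice. Alpha chain genes gave 46.9% ± 2.03 (SD, n = 3) of the globin UMIs of the GqCNO group and 48.6% ± 3.47 (SD, n = 5) of those of the controls, with a range of 44.4% (802) to 53.5% (785, exact 95% binomial interval 44.5% to 62.3%, from 129 UMIs, for counting error only). Hbb-bt gave 9.43% to 15.9% of the beta chain UMIs. The alpha share was also 47.5% to 51.5% in the caudoputamen columns, where a mouse had 2997 to 7426 globin UMIs.

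Of the other red cell genes tested, Alas2 and Slc25a37 gave few UMIs, and Bpgm and Fech gave more. Alas2, the erythroid enzyme that starts haem synthesis, was at 0.0740, 0.251 and 0.185 in GqCNO mice 781, 801 and 804 and at 0.0317 to 0.190 in controls, with overlapping groups and a log2 difference of 0.73 ± 0.50 (SE, limma adjusted p = 0.998). Slc25a37, the mitochondrial iron importer mitoferrin 1, was at 0.0740 to 0.167 in GqCNO mice and 0.00 to 0.100 in controls, with a difference of 1.08 ± 0.53 (SE, limma unadjusted p = 0.0539). Bpgm, an enzyme that sets the oxygen affinity of haemoglobin and is also made outside red cells, had a difference of 0.00 with a 95% interval of -0.50 to 0.50. Fech, the last enzyme of haem synthesis in every cell, had one of -0.26 with an interval of -0.99 to 0.47. The red cell membrane gene Slc4a1, the anion exchanger, had 0 UMIs in all 8 white matter columns, and the embryonic chains Hbb-bh1 and Hbb-y at most 1 UMI in a column. Of the 8 tested members of this list 4 were called, and the list median of 1.41 stands beside -0.01 for all genes. The list's lead was known from earlier results of these data and is not independent evidence.

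Markers of vessels and white blood cells were read beside the globins. Of 17 tested endothelial markers none was called, 7 were higher in GqCNO mice, the median log2 difference was -0.09, and the summed level was 8.71 to 12.4 in GqCNO mice and 10.8 to 14.1 in controls. The 2 endothelial markers with the smallest p were lower in GqCNO mice, with overlapping groups. Pltp differed by -1.02 (limma unadjusted p = 0.00859, adjusted p = 0.998) and Esam by -1.08 (limma unadjusted p = 0.0584). The endothelial tight junction gene Cldn5 was at 0.419 to 0.617 in GqCNO mice and 0.430 to 0.665 in controls. Among 9 tested pericyte and smooth muscle markers none was called, 1 was higher and the median was -0.28. Their summed level was 1.0 to 2.66 against 1.43 to 3.19. Mylk was at 0.00 to 0.0493 in GqCNO mice and 0.0950 to 0.246 in controls, without overlap. It differed by -1.27 (limma unadjusted p = 0.0176, adjusted p = 0.998), and Vtn by -0.51. Of 15 leukocyte and plasma genes in the files, 8 had no UMI in any white matter column, 1 was tested, and the sum was at most 0.296 in GqCNO mice and 0.451 in controls. The summed levels of all 3 lists overlapped between the groups. The other haem and iron genes, 12 tested, had a median of -0.01 and 0 calls. How much blood remained in the vessels of each brain was not measured.

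White matter was then set against the other 2 striatal regions of the same mice. In the caudoputamen the 4 globin genes together stood at 13.5 ± 1.33 (GqCNO, SD, n = 3) and 8.80 ± 2.92 (controls, SD, n = 5), and in the lateral septal complex at 6.74 ± 4.88 and 6.05 ± 4.51. In white matter the corresponding values were 30.1 ± 4.48 and 8.69 ± 3.28. The globin level in white matter was 2.30, 2.47 and 1.95 times that in the caudoputamen in GqCNO mice 781, 801 and 804, and 0.617 to 1.24 times in the 5 controls. The ratio separated the groups without overlap. The 4 genes had been picked for their white matter difference, which enters the ratio, so this separation is not independent evidence. Control white matter and control caudoputamen held about the same globin level.

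**Figure D3:**
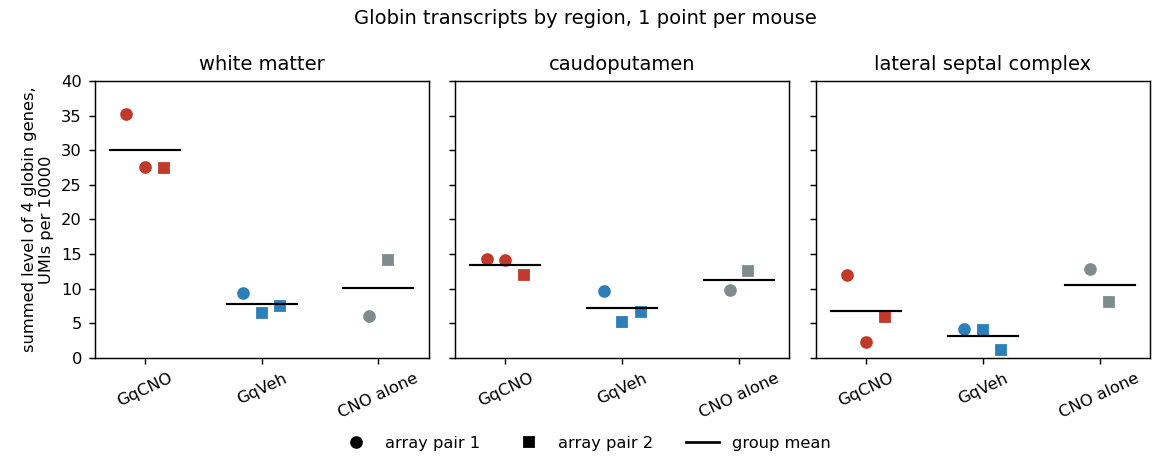
Summed level of the 4 globin genes (UMIs per 10000, axis from 0) in the 3 striatal regions, 1 point for each mouse, with circles and squares for array pairs 1 and 2 and a bar at the group mean. GqCNO mice reach 27.4 to 35.3 in white matter and 11.9 to 14.3 in the caudoputamen, where CNO alone mouse C1W7 (12.6) lies within their range, and the groups overlap in the lateral septal complex.

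The difference between regions was tested in limma on the log2 difference within each mouse. Against the caudoputamen 0 of 10093 genes passed (0%) (before adjustment, 173 higher and 249 lower genes), and against the lateral septal complex 0 of 10134 (0%), with 248 and 209. For Hbb-bs the GqCNO difference in white matter exceeded that in the caudoputamen by 1.16 ± 0.25 (SE, limma unadjusted p = 0.000872, adjusted p = 0.998), and for Hbb-bt, Hba-a1 and Hba-a2 by 1.34 ± 0.35, 1.17 ± 0.30 and 1.12 ± 0.29 (SE, limma unadjusted p = 0.00313, 0.00302 and 0.00291). None of these 4 passed the adjustment over all genes. The 4 had been picked for their white matter difference, which enters these tests. The caudoputamen differences themselves were 0.69, 0.69, 0.64 and 0.62 in the same order, with unadjusted limma p of 0.00394, 0.000825, 0.00316 and 0.00280, and none was called. Against the septal complex the 4 exceeded by 1.31 to 1.71, with unadjusted limma p from 0.0246 to 0.0995. Septal columns of mice 804 and 784 held 7 and 6 discs.

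Sgk1 had the largest log2 difference in GqCNO white matter among the genes named here and did not pass. It encodes serum- and glucocorticoid-regulated kinase 1, induced by glucocorticoids in oligodendrocytes and other cells (chr10:21882184-21999903). Its level was 3.03, 9.71 and 5.81 in GqCNO mice 781, 801 and 804, 1.81, 0.551 and 1.84 in GqVeh mice 784, 785 and 802, and 2.71 and 0.368 in CNO alone mice C1W7 and C2W2. All GqCNO values were above all controls, but 781 and C1W7, both on array pair 2, lay close together. The log2 difference was 2.23 ± 0.46 (SE, limma adjusted p = 0.174), 3.09 within array pair 1 and 1.08 within array pair 2. The call depended on the setting and was absent in the analysis as reported: Sgk1 passed in edgeR (adjusted p = 0.00322) and in limma without mouse 781 (0.0181) or without C1W7 (0.00855), and its adjusted p rose to 0.999 without 801 (difference 1.83), 0.974 without 804 and 0.893 without 785. In the caudoputamen its difference was 0.66, and in the septal complex -0.10.

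Sgk1 heads the 14 tested members of a list of 18 glucocorticoid-responsive genes. None of the 14 was called. In total 13 had a positive difference, against 48.8% of all genes, and the list median was 0.52, against -0.01 for all genes. The list was chosen with earlier results of these data known, so these values are not independent evidence. For array pair 1 alone the median was 0.67, and for array pair 2 alone 0.29. The 18 members summed to 30.5, 41.9 and 30.9 in GqCNO mice 781, 801 and 804. Controls summed to 20.7 to 32.1, so the groups overlapped. Ddit4, an inhibitor of the growth kinase mTORC1, was at 0.370, 1.26 and 0.738 in GqCNO mice 781, 801 and 804 and at 0.150 to 0.539 in controls, with a log2 difference of 1.39 ± 0.42 (SE, limma unadjusted p = 0.00319, adjusted p = 0.998). Fkbp5, a co-chaperone of the glucocorticoid receptor, was at 0.0987, 0.419 and 0.154 against 0.00 to 0.127, with a difference of 1.36 (95% interval 0.24 to 2.48). The groups overlapped for both. Tsc22d3, which encodes the anti-inflammatory protein GILZ, differed by 0.43 (-0.13 to 1.0), Klf9, a hormone-induced transcription factor, by 0.40 (-0.20 to 0.99), Per1, a clock gene with a glucocorticoid response, by 0.34 (-0.43 to 1.12), and the metallothionein genes Mt1 and Mt2 by 0.12 and -0.10. Mouse 801, the shallowest column, had the highest level of Sgk1, Ddit4, Fkbp5, Tsc22d3 and Klf9 of all 8 mice. With every column thinned to the depth of 801, the Sgk1 difference was 2.11 (limma adjusted p = 0.816).

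**Figure D4:**
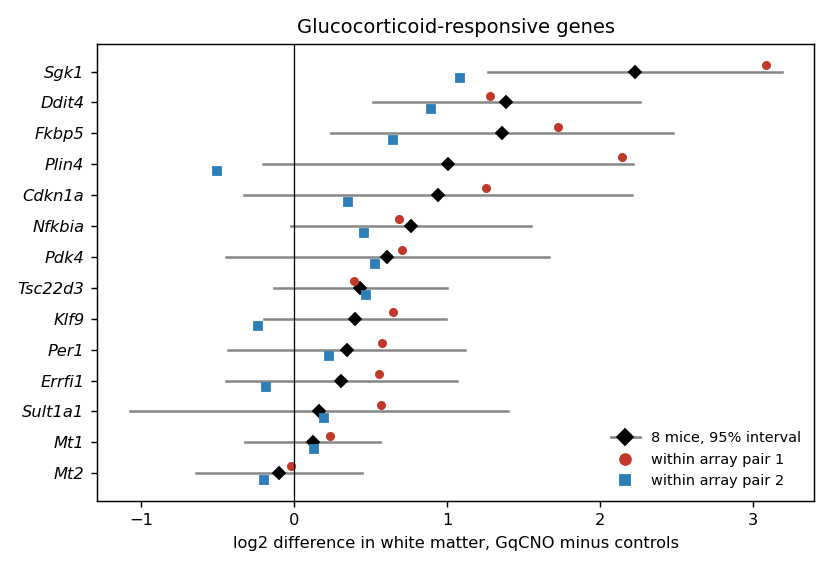
Log2 differences in white matter between GqCNO and control mice for the 14 tested glucocorticoid-responsive genes, with 95% limma intervals (grey) around the value from 8 mice (diamond) and the differences within array pair 1 (circle) and array pair 2 (square). Values run from -0.10 (Mt2) to 2.23 (Sgk1), and for 13 of the 14 the value within array pair 1 is the larger. This lean is not particular to the list. Array pair 1 has the larger value for 18 of 19 myelin structural and 13 of 13 mitochondria-encoded genes, but for 2 of 25 axon and cytoskeleton genes.

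The comparisons with GqVeh and with CNO alone share the 3 GqCNO mice, so passing both is not 2 independent results. Without adjustment, 15 of the 10902 genes tested were higher and 43 lower in GqCNO mice against both control groups (limma p under 0.05). Among those with a mean of at least 0.5, the rises after the globins and Sgk1 were led by Arrdc2, an arrestin-domain gene, at 0.543, 1.51 and 0.523 in GqCNO mice 781, 801 and 804 and 0.246 to 0.451 in controls (log2 difference 1.17 ± 0.37, SE, limma adjusted p = 0.998). On the low side, Atp1b2, the glial beta subunit of the sodium-potassium pump, was at 1.53, 1.09 and 1.11 in GqCNO mice and 1.55 to 2.70 in controls (-0.88 ± 0.25, SE). Adgrg1, an adhesion receptor of glial precursors and microglia, was at 0.296, 0.0837 and 0.431 against 0.475 to 0.859 (-1.30 ± 0.40, SE). H2-D1, a class I antigen-presenting molecule, was at 0.167 to 0.523 against 0.571 to 0.855 (-0.92 ± 0.35, SE), and Necab2 and Irf2bpl differed by -0.91 and -0.94. None of these passed (limma adjusted p = 0.998 for each). The gap between groups was small for Atp1b2, with GqCNO mouse 781 at 1.53 and GqVeh mouse 784 at 1.55. For Atp1b2 the difference was -1.24 on array pair 1 and -0.43 on array pair 2.

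Myelin and oligodendrocyte transcripts, the bulk of this tissue, did not pass in either direction. Of 19 tested myelin structural genes none was called, 8 were higher, and the median log2 difference was -0.05. Mbp was at 207, 340 and 293 in GqCNO mice 781, 801 and 804 and at 184 to 308 in controls, with a difference of 0.06 (95% interval -0.43 to 0.56). Mobp, a basic protein of the compact sheath, differed by 0.27 (-0.23 to 0.76), Mog, at the outer face of the sheath, by 0.07 (-0.41 to 0.54), Mag, facing the axon, by -0.05 (-0.52 to 0.43), and Cnp, an enzyme of the myelin channels, by -0.07 (-0.52 to 0.39). Fold differences of 2 or more in these 5 genes thus lay outside the intervals. The discs of every mouse had been chosen by Mbp, so its level describes that choice. The 29 markers of mature oligodendrocytes had a median of -0.05 and 0 calls, with Adssl1 (0.55) the smallest unadjusted p (0.0435 in limma). The 11 precursor markers had a median of 0.02 and 0 calls, the 12 reactive oligodendrocyte genes -0.02 and 0, and the 22 genes of cholesterol synthesis, the pathway that feeds myelin, -0.21 and 0, with Hsd17b7 at 1.59 (limma unadjusted p = 0.00895) and Cyp51 at -0.76.

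No astrocyte or microglia transcript was called. Of 18 astrocyte markers 2 were higher, and the median was -0.21. Aqp4, the water channel of astrocyte endfeet, was at 0.247, 0.0837 and 0.461 in GqCNO mice and 0.349 to 0.807 in controls (-1.20 ± 0.40, SE, limma adjusted p = 0.998). All 6 tested reactive astrocyte genes, of 19 in the list, were lower, with a median of -0.61. For array pair 1 alone the median was -0.95, and for array pair 2 alone -0.25. The summed level of all 19 overlapped, at 1.67 to 3.06 in GqCNO mice and 2.32 to 4.09 in controls. Gfap, used for the exclusion of discs, differed by -0.33 (95% interval -0.85 to 0.19). The 18 homeostatic microglia markers had a median of 0.07, with Fcrls at -1.10, and the 12 genes of activated and white matter microglia -0.12, with the lysosomal gene Cd68 at 0.0615 to 0.0987 in GqCNO mice and 0.150 to 0.427 in controls (-1.16 ± 0.43, SE, limma unadjusted p = 0.0127). Of 18 interferon and antigen presentation genes 6 were higher (median -0.11), and the summed level of all 33 was 6.20 to 7.11 in GqCNO mice and 7.12 to 9.37 in controls. GqCNO mouse 781 (7.11) and GqVeh mouse 802 (7.12) were almost level. None of these genes was called.

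The summed levels of the neuronal lists overlapped between the groups. The 23 striatal projection neuron markers had a median of 0.04 and summed levels of 11.2 to 18.3 in GqCNO mice and 11.5 to 18.3 in controls. Cortical projection neuron markers summed to 2.01 to 12.5 and 3.47 to 16.3, with a median of -0.33 over 17 genes that was -0.78 on array pair 1 and 0.83 on array pair 2. Lamp5, a cortical and interneuron marker, was at 0.444, 0.754 and 0.861 in GqCNO mice and 0.00 to 0.454 in controls (1.61 ± 0.45, SE, limma adjusted p = 0.998). The Lamp5 difference was 2.72 against CNO alone (limma unadjusted p = 8.63e-05) and 0.88 against GqVeh (limma unadjusted p = 0.0982). Between the control groups, GqVeh exceeded CNO alone by 1.84 (limma unadjusted p = 0.00371). The 11 GABAergic and septal markers had a median of -0.29 that turned to 0.13 with the array pair as a block. The 25 axon and cytoskeleton genes, carried in part by RNA of the axons themselves, had a median of 0.11. The neuronal tubulin Tubb3 differed by 0.53, by 0.20 against GqVeh and by 1.02 against CNO alone. None of these genes was called. Meningeal and fibroblast markers (7 tested) had a median of -0.13 and ependymal and choroid plexus markers (12 tested) one of -0.12, with 0 calls each.

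The transporter genes of dopamine neurons gave almost no UMIs. Slc6a3, the dopamine transporter gene, had 0 UMIs in all 8 white matter columns, Slc18a2, the vesicular monoamine transporter gene, was at 0.00 to 0.0614, and Th, the rate-limiting enzyme of dopamine synthesis, at 0.00 to 0.349, highest in GqVeh mouse 784. Ddc, the decarboxylase that follows Th, was at 0.592, 1.0 and 0.800 in GqCNO mice, 0.222, 0.401 and 0.426 in GqVeh mice and 0.617 and 0.859 in CNO alone mice. Its log2 difference was 1.10 against GqVeh (limma unadjusted p = 0.00580) and 0.09 against CNO alone (limma unadjusted p = 0.817). The 9 tested genes of dopamine synthesis, transport and breakdown had a median of -0.09. The 19 activity-regulated genes had a median of -0.04, the 18 clock genes 0.02, with Per3 at 0.154 to 0.296 in GqCNO mice and 0.0614 to 0.150 in controls, the 17 cytosolic chaperones 0.08, the 18 genes of endoplasmic reticulum stress -0.01, and the 22 genes of oxidative stress defence -0.04. Of 13 mitochondria-encoded respiratory genes 12 were lower, with a median of -0.20 and summed levels of 916 to 976 in GqCNO mice and 902 to 1308 in controls. None of these lists held a called gene.

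**Figure D5:**
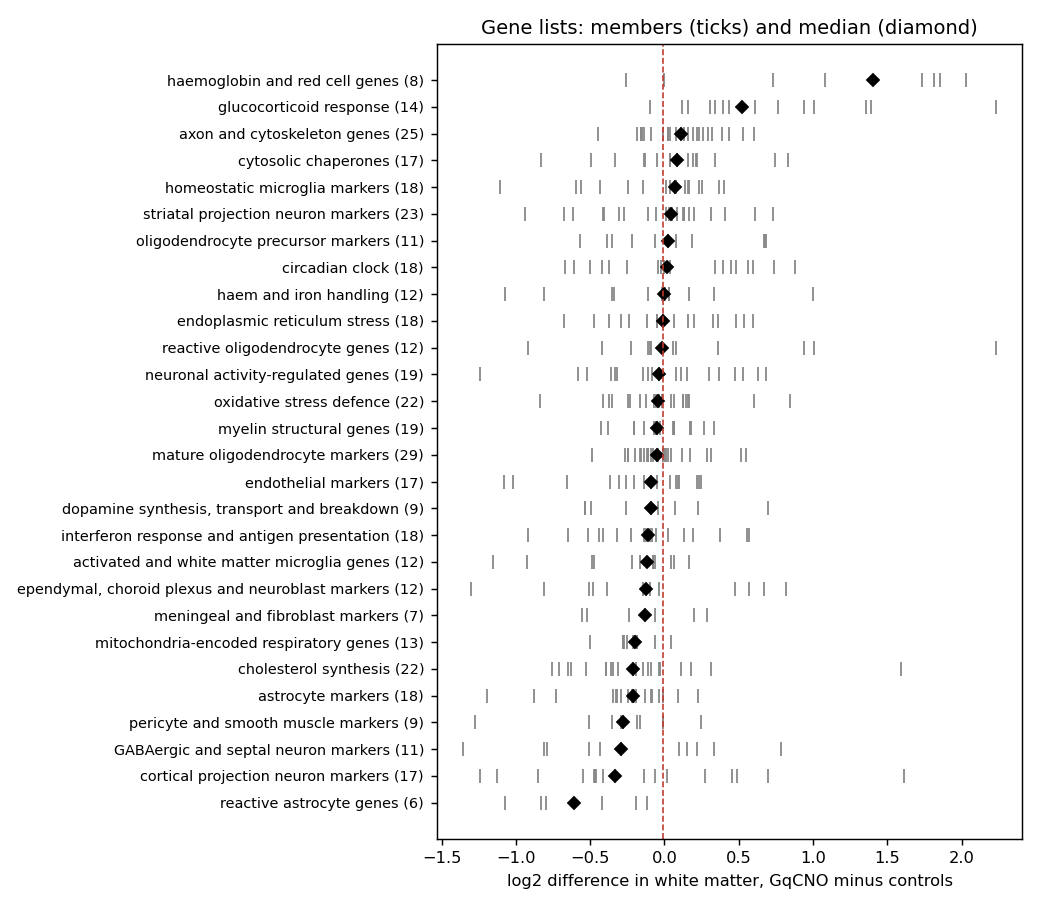
Log2 differences between GqCNO and control white matter for the gene lists with at least 5 tested members (number in brackets), 1 tick for each gene, a diamond at the list median and a dashed line at the median of all genes (-0.01). The haemoglobin list (1.41) and the glucocorticoid list (0.52) have the highest medians, and reactive astrocyte genes (-0.61) the lowest.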

How the data were processed

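The authors aligned Visium reads to mm10 with Space Ranger (submitters' notes, version not given in the sources used here), chose discs in Loupe Browser, and deposited a signal for each gene, region and mouse, the median-normalized average over the discs. Disc labels and disc positions, of other kinds, were deposited too and served only to count discs and their neighbours (within 1.3 grid spacings). Values below 200 steps were whole numbers of steps in 100% of cases, to within 0.05 steps, in every column. Each step was therefore read as 1 UMI summed over the discs, which the authors do not state, and all UMI numbers, thinning, edgeR and binomial intervals rest on this reading. Columns were brought to a common sum of 10000, and 0.05 was added before taking log2, so log2 differences are on that scale and understate the change of low genes. A gene absent from 1 of the 2 files was set to 0.

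Genes with a mean of at least 0.05 were tested. limma 3.58.1 (R 4.3.3) fitted 1 mean for each of the 3 groups with a variance trend, and the 5 controls were weighted by mouse. Differences between regions were tested on each mouse's log2 difference. P-values were adjusted over all genes tested. They measure the spread between 8 mice on 2 arrays, with each gene's variance drawn by limma toward that of genes of similar level. Tests were checked on simulated data, but no error rate from that check is given here. Thinning drew UMIs without replacement (scatter 0.976 to 1.02 times the binomial variance). An earlier run used the thinCounts function of edgeR, whose scatter was 1.51 to 2.94 times that variance. edgeR 4.0.16 and the methods' t-test were among the alternatives. The region, the 29 gene lists and the tests were chosen with earlier results of these data known. Coordinates came from the RefSeq table of GRCm38.p6 by symbol (10744 of 10902 genes).

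The rule for named genes took every called gene, tested red cell genes, up to 6 rises and 6 falls of genes with a mean of at least 0.5 that did not overlap and passed p under 0.05 before adjustment against GqVeh and against CNO alone, the 2 members of each list with the smallest p, the genes used to choose discs, 5 myelin genes (1 not reported here) and 4 dopamine genes. Other list members named (Cldn5, Fkbp5, Hbb-bh1, Hbb-y, Klf9, Mt1, Mt2, Penk, Per1, Slc4a1, Sst, Tsc22d3, Ttr) were added after their values were seen. Depth was 119422 to 405313 UMIs a column.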

Additional observations from a re-analysis of the deposited data

Results flagged for a closer look

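For some named genes, 1 control mouse stood apart from the other 4 controls in white matter by Dixon's criterion, which flags about 1 in 20 groups by chance. CNO alone mouse C1W7 had a Hba-a1 level of 4.42 UMIs per 10000 (1.60 to 2.38 in the other controls), a Fech level of 0.95 (0.491 to 0.596) and an Aif1 level of 0.760 (0.142 to 0.246). GqVeh mouse 784 had levels of 1.55 for Atp1b2 (2.37 to 2.70), 0.984 for Nxph4 (0.184 to 0.255), 41.1 for Mobp (68.6 to 76.5), 17.1 for Cnp (27.9 to 29.3) and 0.349 for Th (0.00 to 0.0284). GqVeh mouse 802 had levels of 0.539 for Ddit4 (0.150 to 0.246) and 0.965 for Cyp51 (0.430 to 0.551). CNO alone mouse C2W2 had a Pts level of 0.184 (0.426 to 0.522), and GqVeh mouse 785 a Lyz2 level of 0.351 (0.0475 to 0.127).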

How the results depend on the processing

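In GqCNO against all controls, 4 genes were called, 0 without the variance trend, 2 after thinning every column to the lowest total (Hbb-bs and Hba-a1), 0 in the methods' t-test, and 3 to 5 with single mice left out. Against GqVeh the count of 4 became 1 with 0.01 added, 0 without the trend, 2 after thinning, 0 in the methods' t-test, and 0 to 4 with single mice left out. Against CNO alone the count of 0 became 2 with 0.2 added, 4 with 1 added, 2 with no filter on low values, 2 with the array pair as a block, and 0 to 6 with single mice left out. GqVeh against CNO alone gave 1 call with 1 added, and white matter minus caudoputamen 1 with 1 added (Hbb-bs). The cause was not tested. Leaving out mice 781 and 784, those with the least myelin transcript, was chosen after seeing the data and gave 5 calls (Hbb-bs, Hba-a1, Hba-a2, Sgk1 and Penk), with Hbb-bt at an adjusted p of 0.0545 in limma. Sgk1 also passed with 0.2 or 1 added and with no filter. Directions turned only in genes that were not called. After thinning, the log2 differences were -0.00477 for Mog, 0.00495 for Mag, -0.0122 for Ppp1r1b and 0.29 for Bpgm. With the thinCounts function of edgeR, a thinning added after seeing the data that also gave 2 calls in each of the first 2 comparisons, they were 0.31 for H2-D1, -0.12 for Blvrb, -0.18 for Scg2, 0.11 for Fech, -0.71 for Aif1 and -0.0716 for Ppp1r1b. With the block they were -0.0376 for Mbp, -0.0543 for Ppp1r1b and 0.0142 for Bpgm, in edgeR 0.12 for Lyz2 and -0.0443 for Aif1, and without mice 781 and 784 0.0922 for Mag. Aif1 stood at -0.0151 with 1 added, -0.0317 with equal weights of the control groups and -0.18 in the methods' t-test, and Bpgm at 0.00278 with haemoglobin genes left out of the total and 0.000262 with 0.01 added. With single mice left out the ranges were -1.05 to 0.17 for Lyz2, -0.50 to 0.16 for Fech, -0.23 to 0.0798 for Cnp, -0.0825 to 0.20 for Mog, -0.0905 to 0.27 for Mbp, -0.31 to 0.20 for Mag, -0.11 to 0.41 for Aif1, -0.14 to 0.31 for Ppp1r1b and -0.0854 to 0.10 for Bpgm. Mice carry no replicate numbers shared between groups, so groups were not paired by number. Depth limits low genes: over all genes the median width of the 95% interval was 1.78 log2 units.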
